A study of Homo sapiens with 6 samples.

Results

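RAB proteins are small GTPases that mark the membranes of the cell and direct vesicle traffic between them. Each cycles between a GTP-bound form, which sits on its membrane and recruits effectors such as motors and tethers, and a GDP-bound form that is held in the cytosol by a GDP dissociation inhibitor. Exchange factors switch RABs on, GTPase-activating proteins switch them off, and a geranylgeranyl anchor added with the help of an escort protein lets them attach to membranes. In polarized epithelia and hepatocytes, RABs sort cargo between the basolateral and apical surfaces, and several of them act only in particular secretory or pigment-producing cells.

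The genes described here were those whose symbol is RAB followed by a number and at most a letter and for which the expression table lists a protein-coding transcript. This rule took 60 of the 35856 genes of the table, of which 17141 had a protein-coding transcript. A pseudogene, RAB1C, fitted the name but not the transcript type. RAB25, RAB3C and RAB39A were not analysed here.

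The study asked what the long non-coding RNA LINC00862 does in hepatocellular carcinoma. HCCLM3, an established human hepatocellular carcinoma cell line, was transfected either with a vector carrying LINC00862 (LINC00862 group, 3 libraries) or with the vector lacking an insert (empty group, named NC in the labels, 3 libraries). Messenger RNA was selected on oligo(dT) and sequenced in strand-marked libraries. For the sequenced cells, the sources do not say whether the transfection was stable or transient, or whether a clone was used. Nor do they say whether the libraries came from separate cultures, so the p-values below measure only the spread between these libraries. The values were deposited counts, which entered every test, and deposited FPKM (fragments per kilobase, scaled to sequencing depth), which permit levels of different genes to be set side by side. The empty libraries held 59648337, 58241123 and 59243210 counts, and those of LINC00862 68229070, 58781905 and 58913560.

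LINC00862 itself had 11, 21 and 6 counts in empty and 145, 121 and 76 in LINC00862. The groups did not overlap, which is the direction given by the labels, although the level stayed low (0.0507 ± 0.0343 against 0.449 ± 0.12 FPKM, mean ± SD, n = 3 per group). Its log2 fold change was 3.22 (SE 0.53, Benjamini-Hochberg adjusted p = 0.000583 in edgeR's quasi-likelihood test). Across the whole table the groups differed widely. The same test called 13321 of 20741 genes at a false discovery rate of 0.05, or 64.2%, with 34.4% higher and 29.8% lower in LINC00862. Any count of genes called below has to be read against these shares.

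Markers of cell state moved with the groups. Of 12 epithelial markers, 11 were higher in LINC00862 and 0 lower. Their summed level was 9.34, 9.11 and 8.03 FPKM in empty and 467.5, 443.5 and 367.2 FPKM in LINC00862. The most abundant was ESRP2 in empty (5.11 FPKM) and EPCAM in LINC00862 (159.8 FPKM). Of 12 mesenchymal markers, 10 were lower and 1, COL1A1, was higher. They summed to 976.1, 961.7 and 984.1 FPKM in empty and to 16.8, 16.9 and 21.8 FPKM in LINC00862. The most abundant was VIM in empty (538.9 FPKM) and COL1A1 in LINC00862 (10.6 FPKM). Hepatocyte markers summed to 3.04, 2.94 and 3.46 FPKM in empty and to 617.8, 548.2 and 538.6 FPKM in LINC00862, of which FGB made up most. Of 7 hepatocyte markers tested, 6 were higher and 1, SERPINA1, was lower, from 363, 393 and 501 to 29, 48 and 24 counts. In the empty libraries TTR and CYP3A4 were at 0 counts in all 3, ALB at 0, 0 and 7 and HNF4A at 0, 0 and 4, while FGB had 546, 485 and 492. In LINC00862, ALB had 423, 394 and 282 counts, and CYP3A4 0, 5 and 0. Leukocyte markers stayed low (4.49 ± 0.58 against 7.75 ± 0.921 FPKM summed, most abundant CD14), and neuronal markers went from 0.735 ± 0.192 to 31.6 ± 3.86 FPKM summed, in LINC00862 nearly all of it NEFL. The part of these shifts in the RAB values was not tested. In bulk RNA, a different share of cells in a given state and a different amount of RNA per cell cannot be told apart.

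RAB genes went in both directions, in equal number under TMM scaling but not under upper quartile or library-size scaling. Of the 60 genes, 58 had enough counts to be tested, 20 were up-regulated, 20 were down-regulated and 18 passed no threshold. This is 69.0% called, beside 64.2% of all genes tested and 69.1% of protein-coding genes (32.2% higher and 36.9% lower), so the share of RAB genes called was that of the background. With a 2-fold limit added, 15 were higher and 13 lower, beside 28.9% of all genes higher and 20.9% lower under that limit. In either direction, that limit took 49.8% of all genes and 49.9% of protein-coding genes. FPKM did not overlap between the groups for 46 RAB genes, beside 71.1% of all genes tested. Which RAB genes moved, and how far, is the content of what follows. Genes named for the largest rises or falls were taken only from those without FPKM overlap. Their separation between the groups is therefore fixed by that choice.

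The median log2 fold change over the tested RAB genes was -0.10, beside 0.11 over all genes tested and -0.11 over protein-coding genes, and it turned to 0.11, beside 0.32 for all genes, when upper quartile scaling replaced TMM. Scaling by library size alone gave -0.26 beside -0.05. The typical RAB gene therefore had no direction that held under every scaling. The median size of change, whatever its sign, was 0.99 on the log2 scale against 1.16 for all genes. RAB genes together took 0.328, 0.291 and 0.306% of counts in empty and 0.297, 0.298 and 0.268% in LINC00862. The groups overlapped in this share. Summed RAB FPKM was 764.3, 717.5 and 787.1 in empty and 716.2, 718.1 and 617.5 in LINC00862, again with overlap. In the LINC00862 libraries the 10 most abundant genes took 20.2, 19.4 and 29.2% of all counts, against 8.42, 11.7 and 9.55% in empty. LINC00862 library 3 stood apart in this measure. Without it 19 RAB genes were higher and 21 lower.

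**Figure D1:**
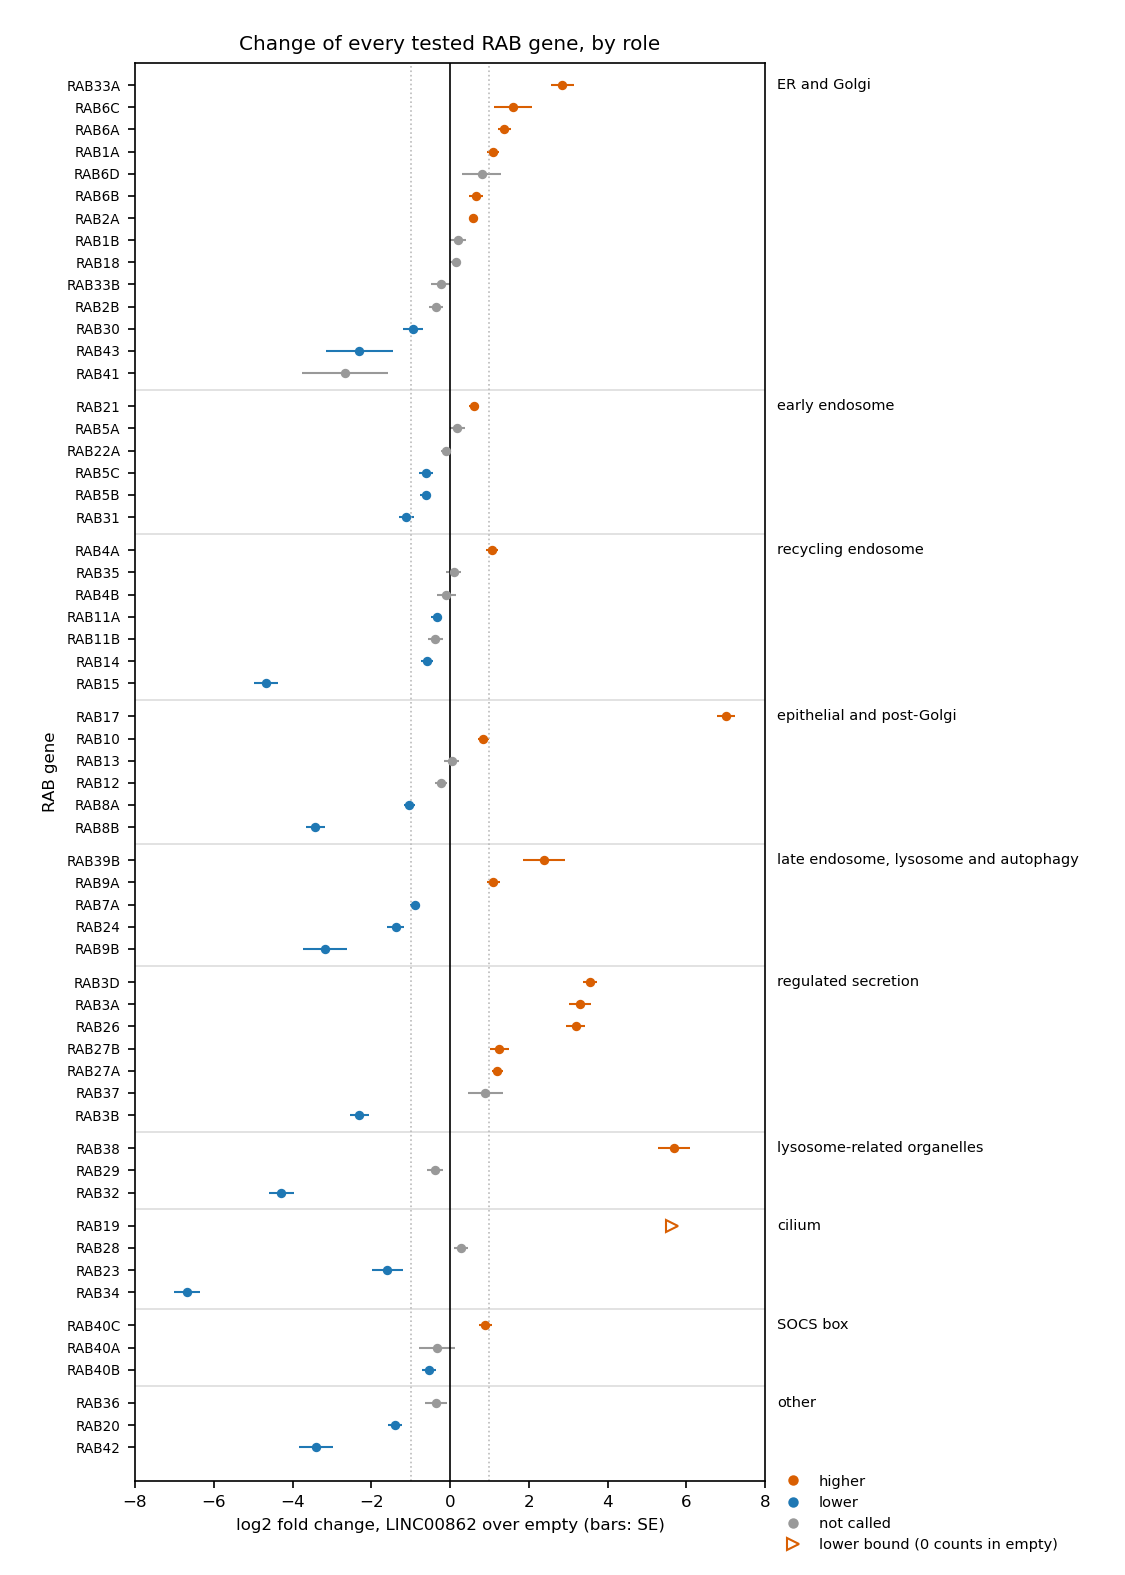
Log2 fold change (LINC00862 over empty, x axis) of the 58 tested RAB genes (y axis), grouped by role, with bars for the SE, colours for the call and dotted lines at a 2-fold change. Rises and falls are mixed within most roles, from RAB34 at -6.69 to RAB17 at 7.01, and the open triangle marks RAB19, which had 0 counts in the empty libraries, at its lower bound of 49.8-fold.

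**Figure D2:**
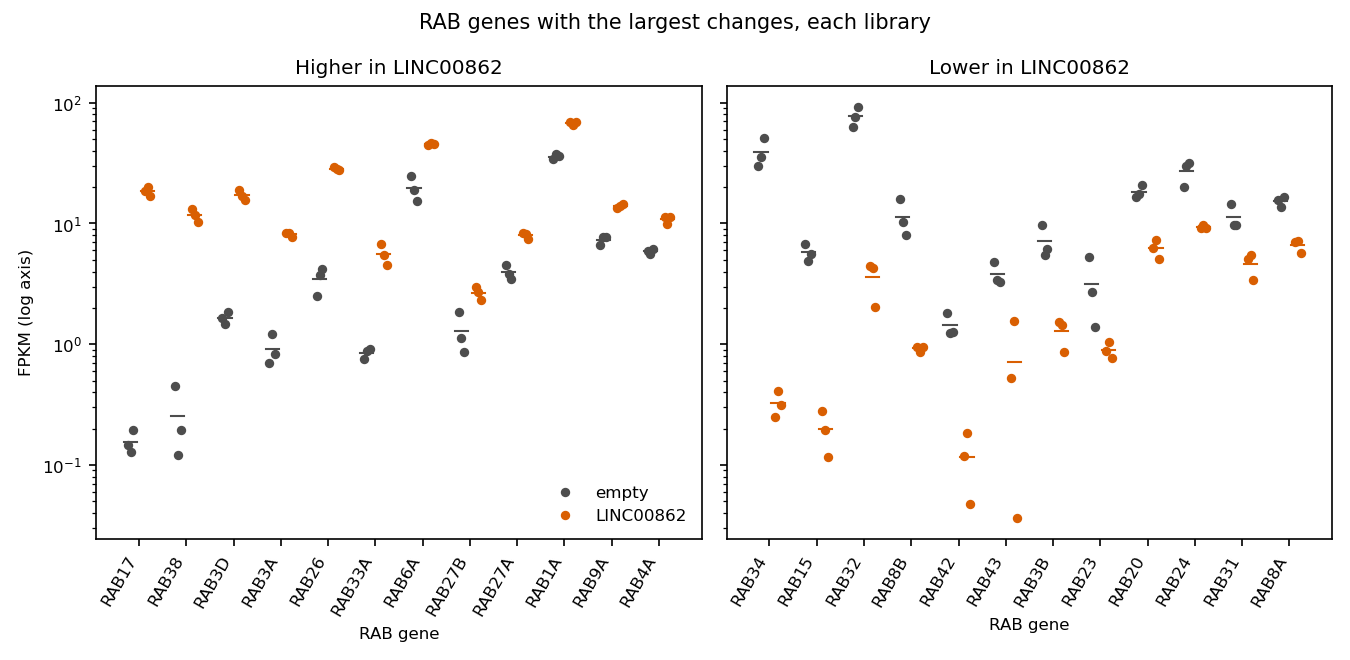
FPKM (log axis) in each of the 3 empty and 3 LINC00862 libraries for the 12 RAB genes with the largest rises (left) and the 12 with the largest falls (right), points for libraries and short lines for group means. Only called genes with at least 1 FPKM in a group and no overlap between the groups were taken. By this choice no gene shown has overlapping groups, and RAB34, RAB17 and RAB43 span the widest range.

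The highest RAB transcripts per length were RAB1B, RAB1A, RAB10, RAB32 and RAB5C, with means over the 6 libraries of 93.3, 52.0, 49.8, 40.3 and 36.4 FPKM. This order pools both groups and holds in neither. In LINC00862, RAB6A, RAB2A and RAB26 (45.3, 31.7 and 28.5 FPKM) lay above RAB5C and far above RAB32, and in empty RAB34 (38.7 FPKM) lay above RAB10 and RAB1A. Only RAB1B of these passed no threshold between the groups. RAB1A and RAB10 rose, RAB32 and RAB5C fell.

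Among 7 tested RABs of regulated secretion, which dock secretory granules and vesicles at the plasma membrane, 5 rose, 1 fell and 1, RAB37, was not called. This is 85.7% called, beside 64.2% of all genes and 69.1% of protein-coding genes (32.2% higher and 36.9% lower). The summed level of these RABs was 21.0, 16.9 and 17.4 FPKM in empty and 69.3, 66.4 and 62.1 FPKM in LINC00862. The groups were far apart. RAB3D, found on secretory granules of exocrine cells, had 475, 418 and 539 counts in empty and 6294, 4929 and 4641 in LINC00862. Every LINC00862 library lay well above every empty library. Its log2 fold change was 3.56 (SE 0.17, Benjamini-Hochberg adjusted p = 3.12e-07 in edgeR's quasi-likelihood test). TMEM205, which overlaps RAB3D on the same strand, had 1953, 2540 and 3214 counts in empty and 4162, 3489 and 2729 in LINC00862, and its part in the RAB3D counts was not tested. RAB3A, best known from synaptic vesicles, had 84, 144 and 100 counts in empty and 1137, 987 and 930 in LINC00862. It was low in all 3 empty libraries and high in all 3 others, with a log2 fold change of 3.30 (SE 0.27, Benjamini-Hochberg adjusted p = 9.05e-06 in edgeR's quasi-likelihood test). RAB26, which acts in granule maturation, had 412, 608 and 699 counts in empty and 5551, 4687 and 4647 in LINC00862. The groups did not overlap, and the log2 fold change was 3.19 (SE 0.24, Benjamini-Hochberg adjusted p = 4.79e-06 in edgeR's quasi-likelihood test). RAB27A and RAB27B, which bring exosomes and secretory lysosomes to the surface, rose less, with log2 fold changes of 1.20 (SE 0.14) and 1.25 (SE 0.24). RAB27A had 1694, 1398 and 1294 counts in empty and 3605, 3036 and 2795 in LINC00862, with the groups separate. PIGBOS1, which overlaps RAB27A on the same strand, went from 323, 515 and 487 to 1084, 730 and 754 counts. Its part in the RAB27A counts was not tested. For RAB27B the counts were 879, 526 and 410 in empty and 1619, 1272 and 1116 in LINC00862, a wider spread but again without overlap.

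RAB3B was the member of this group that fell. It had 8164, 4616 and 5221 counts in empty and 1488, 1219 and 736 counts in LINC00862. All LINC00862 libraries were lower, with a log2 fold change of -2.30 (SE 0.24, Benjamini-Hochberg adjusted p = 3.89e-05 in edgeR's quasi-likelihood test). The RAB3 subfamily therefore changed its makeup. RAB3B made up 80.5, 67.4 and 69.7% of the summed RAB3 FPKM in empty and 5.32, 5.38 and 3.52% in LINC00862. RAB3D went from 17.5 ± 3.66% to 64.6 ± 1.08% (n = 3) and RAB3A from 10.03 ± 4.55% to 30.7 ± 1.42%. By FPKM, RAB3B was the leading form in each empty library and the smallest in each LINC00862 library. By counts it was the smallest only in LINC00862 library 3.

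Because RAB3A and RAB3D moved opposite to RAB3B, the reference bases before their starts are given, as are those of RAB9A and RAB9B, another pair of paralogs that moved in opposite directions. The windows are from RefSeq on GRCh38.p14, in a file used here that holds 47 of the 60 RAB genes, and run from 250 bases before a gene's start. They are trimmed to the longest part without an exon of the GENCODE annotation, so they hold no annotated exon bases. The RAB3D stretch lies between exons inside the gene's span (chr19:11322068-11346270). Capitals mark GGGCGG, the GC box, and CACCTG, an E-box, each on either strand (CCGCCC and CAGGTG read on the other strand).
RAB3A (chr19:18204075-18204292, minus strand): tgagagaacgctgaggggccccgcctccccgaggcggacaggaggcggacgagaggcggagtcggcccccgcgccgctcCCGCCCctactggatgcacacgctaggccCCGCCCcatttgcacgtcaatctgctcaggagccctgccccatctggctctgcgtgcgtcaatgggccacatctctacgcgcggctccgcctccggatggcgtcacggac
RAB3D (chr19:11339669-11339907, minus strand): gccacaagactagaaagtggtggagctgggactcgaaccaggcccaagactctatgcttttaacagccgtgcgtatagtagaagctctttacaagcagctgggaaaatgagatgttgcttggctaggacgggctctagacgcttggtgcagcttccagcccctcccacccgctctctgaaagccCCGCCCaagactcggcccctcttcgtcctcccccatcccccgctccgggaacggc
RAB3B (chr1:51990765-51990950, minus strand): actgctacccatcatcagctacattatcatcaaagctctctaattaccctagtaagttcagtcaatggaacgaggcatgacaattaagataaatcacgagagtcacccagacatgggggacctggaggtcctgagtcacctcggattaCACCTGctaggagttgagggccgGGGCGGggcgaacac
RAB9A (chrX:13688878-13689124, plus strand): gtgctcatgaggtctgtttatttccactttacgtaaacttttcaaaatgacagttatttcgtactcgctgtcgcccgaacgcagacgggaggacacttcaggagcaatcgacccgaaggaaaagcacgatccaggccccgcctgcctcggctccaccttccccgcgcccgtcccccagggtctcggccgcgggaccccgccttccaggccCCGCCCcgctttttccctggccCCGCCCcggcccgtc
RAB9B (chrX:103832258-103832507, minus strand): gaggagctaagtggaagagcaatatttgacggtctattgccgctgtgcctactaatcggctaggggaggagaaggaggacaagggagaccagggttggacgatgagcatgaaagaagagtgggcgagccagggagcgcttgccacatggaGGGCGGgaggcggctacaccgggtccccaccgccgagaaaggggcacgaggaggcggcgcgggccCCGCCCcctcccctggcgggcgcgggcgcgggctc
Of these 5 stretches, RAB3B was the only holder of CACCTG, with 1 match, and it had the lowest share of G and C, 50.5%. RAB3A had 70.6% and RAB3D 59% G and C.

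Over whole windows of 250 bases before and 50 after the start, taking the first listed start of each gene, GGGCGG was in 38 of 47 RAB windows (80.9%) and in 44.6% of all 27305 windows. CACCTG was in 8 of the 47 (17.0%) and in 20.6% of all. CACGTG, a further E-box, was in 6 (12.8%, against 7.4% of all), and TGACTCA, the AP-1 motif, in 3 (6.4%, against 4.9%). TATAAA was in 4 (8.5%, against 12%), CAAAGTCCA, an HNF4A motif, in 1 (2.1%, against 0.4%), and AACCNGTT, a grainyhead motif, in 0 (against 1.7%). RAB windows were richer in G and C, with a median of 65.0% against 58.3%. The 27305 windows outnumber the 17141 protein-coding genes of the expression table, whereas every RAB gene here has a protein-coding transcript. Shares over protein-coding windows alone were not computed, so these differences cannot be read as particular to RAB genes. Windows were held for 10 of the 15 RAB genes that rose by at least 2-fold and for 11 of the 13 that fell. RAB38, RAB26, RAB33A, RAB1A and RAB39B had none among the rises, nor RAB15 and RAB20 among the falls. CACCTG was in 3 of 10 windows of genes that rose and in 1 of 11 of genes that fell, and GGGCGG in 7 of 10 and 10 of 11. CACGTG was in 1 of 10 and 2 of 11, and TGACTCA in 0 of 10 and 2 of 11. TATAAA and CAAAGTCCA were each in 1 of 10 and 0 of 11, and AACCNGTT in 0 of both. RAB3B held TGACTCA in its window, and RAB3A, RAB3D, RAB9A and RAB9B did not. These matches are descriptions of the letters in the windows.

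The RABs of epithelial and post-Golgi traffic held the largest rise among genes with a level of at least 1 FPKM. Of 6 tested, 2 rose, 2 fell and 2, RAB12 and RAB13, were not called, or 66.7% called, beside 64.2% of all genes. RAB17 (chr2:237574322-237591071, minus strand), which works in transcytosis and apical recycling of polarized epithelial cells, had 48, 41 and 63 counts in empty and 6735, 6316 and 5345 in LINC00862. It went from near silence, 0.156 ± 0.0342 FPKM, to 18.4 ± 1.67 FPKM (n = 3). This was a 129-fold rise with a log2 fold change of 7.01 (SE 0.22, Benjamini-Hochberg adjusted p = 4.25e-08 in edgeR's quasi-likelihood test). A non-coding gene on the opposite strand at this locus, AC104667, had 0 counts in each empty library and 288, 220 and 213 in LINC00862. The counting is not stated to use strand, so a small part of the RAB17 counts cannot be told apart from it. RAB10, which carries cargo to the basolateral surface, had 11672, 8467 and 7809 counts in empty and 16941, 15324 and 14424 in LINC00862. The groups were separate and the log2 fold change was 0.85 (SE 0.15).

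RAB8A and RAB8B, which drive post-Golgi transport to the surface and to the primary cilium, both fell. RAB8B had 5360, 3428 and 2716 counts in empty and 374, 289 and 328 in LINC00862. All LINC00862 libraries were low and close to each other, and the log2 fold change was -3.42 (SE 0.24, Benjamini-Hochberg adjusted p = 3.04e-06 in edgeR's quasi-likelihood test). RAB8A had 5099, 4445 and 5471 counts in empty and 2649, 2332 and 1892 in LINC00862, without overlap and with a log2 fold change of -1.04 (SE 0.14). HSH2D, a gene on the same strand that overlaps RAB8A, went the other way, from 21, 22 and 5 counts to 824, 731 and 821. Within the subfamily of RAB8A, RAB8B, RAB10 and RAB13, RAB10 rose from 40.8 ± 5.79% to 64.2 ± 1.69% of summed FPKM. RAB8B dropped from 11.96 ± 3.32% to 0.97 ± 0.09% and RAB8A from 16.4 ± 1.72% to 6.96 ± 0.57%. The share of RAB13 overlapped between the groups (30.8 ± 7.61% against 27.8 ± 1.58%).

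RABs of lysosome-related organelles, the compartments that include melanosomes and platelet granules, were only 3, with 1 higher, 1 lower and 1 not called. This is 66.7% called, beside 64.2% of all genes. RAB32 (chr6:146543833-146554953, plus strand) had 4422, 5251 and 6607 counts in empty and 360, 302 and 146 in LINC00862. It was among the highest RABs in empty, at 77.1 ± 15.2 FPKM, and dropped to 3.58 ± 1.33 FPKM. The log2 fold change was -4.28 (SE 0.31, Benjamini-Hochberg adjusted p = 3.98e-06 in edgeR's quasi-likelihood test). RAB38 (chr11:88113251-88175443, minus strand), its closest relative, had 43, 12 and 19 counts in empty and 1455, 1108 and 989 in LINC00862. It was barely detected in the empty group and at 11.8 ± 1.5 FPKM in the other. The log2 fold change was 5.69 (SE 0.4, Benjamini-Hochberg adjusted p = 3.16e-06 in edgeR's quasi-likelihood test), and it ran from 5.38 to 6.28 with a library left out. RAB29, which acts with the kinase LRRK2 at lysosomes, had 2867, 1740 and 1963 counts in empty and 2015, 1683 and 1066 in LINC00862 and was not called. RAB32 made up 89.5 ± 4.34% of the FPKM of this subfamily in empty and 16.5 ± 3.55% in LINC00862, while RAB38 went from 0.32 ± 0.25% to 56.4 ± 5.65%. The summed level of the 3 genes, RAB29 included, was lower in LINC00862, with 74.2, 82.5 and 100.7 FPKM in empty and 24.5, 22.5 and 16.4 FPKM in LINC00862.

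Of the 4 RABs linked to the cilium, 1 rose, 2 fell and RAB28 was not called (75.0% called, beside 64.2% of all genes). RAB34 (chr17:28714281-28718429, minus strand), needed for early steps of cilium formation, had 6496, 7704 and 11220 counts in empty and 65, 93 and 73 in LINC00862. It was nearly lost in every LINC00862 library, at 38.7 ± 10.9 FPKM against 0.324 ± 0.0792 FPKM. This was the deepest fall of any tested RAB gene, 103-fold, with a log2 fold change of -6.69 (SE 0.33, Benjamini-Hochberg adjusted p = 3.86e-07 in edgeR's quasi-likelihood test). RAB23, a negative regulator of Hedgehog signalling, had 1731, 863 and 452 counts in empty and 330, 342 and 256 in LINC00862. Its empty libraries were widely spread but all above the LINC00862 libraries, and the log2 fold change was -1.59 (SE 0.39). It ran from -1.92 to -1.04 with a library left out. RAB19, whose level stayed under 1 FPKM and which was picked after its values were seen, had 0, 0 and 0 counts in empty and 208, 141 and 82 in LINC00862. Against a floor of 3 counts per library, it was at least 49.8-fold higher. The summed FPKM of the group went from 48.7 ± 9.78 to 9.4 ± 1.47. Most of it was RAB34 in empty (38.7 FPKM) and RAB28 in LINC00862 (7.43 FPKM).

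RABs of the endoplasmic reticulum and Golgi were the most numerous, with 14 tested, 6 higher and 2 lower. This is 57.1% called, beside 64.2% of all genes. These RABs summed to 208.4, 188.3 and 206.4 FPKM in empty and 282.5, 285.3 and 237.6 FPKM in LINC00862, without overlap. RAB1A, which governs transport from the endoplasmic reticulum to the Golgi, had 7539, 8076 and 7938 counts in empty and 17698, 14258 and 15410 in LINC00862. It was high in all LINC00862 libraries, with a log2 fold change of 1.10 (SE 0.15, Benjamini-Hochberg adjusted p = 0.000164 in edgeR's quasi-likelihood test). RAB1B, its close paralog, had 11322, 10210 and 14044 counts in empty and 15972, 14297 and 8572 in LINC00862. The groups overlapped, and it was not called (log2 fold change 0.20, SE 0.21). RAB1A thus went from 28.3 ± 3.4% to 42.6 ± 7.71% of the pair's FPKM.

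RAB6A, which controls retrograde traffic through the Golgi, had 8092, 6104 and 5017 counts in empty and 16575, 14928 and 14939 in LINC00862. The LINC00862 libraries were all higher and tightly grouped, with a log2 fold change of 1.38 (SE 0.17). RAB6C was also called higher, at 17, 16 and 32 counts against 53, 60 and 71, but RAB6C and RAB6D are near-identical copies of RAB6A, so their counts are uncertain. Without empty library 2 or LINC00862 library 3, RAB6C was no longer called (Benjamini-Hochberg adjusted p = 0.0509 and 0.0628 in edgeR's quasi-likelihood test). RAB6B rose by a log2 fold change of 0.66 (SE 0.18), and its call was lost under library-size scaling and without LINC00862 library 2 (adjusted p = 0.071 and 0.0517 by the same edgeR test), as well as in limma on log2(FPKM + 1) and log2(FPKM + 0.1) (Benjamini-Hochberg adjusted p = 0.0976 and 0.092 in limma-trend's empirical Bayes test). RAB33A, a Golgi RAB mainly known from neurons and lymphocytes, had 48, 55 and 58 counts in empty and 485, 341 and 286 in LINC00862. It was low in each empty library and clearly higher in each of the others, with a log2 fold change of 2.85 (SE 0.29). RAB33B, which binds the autophagy protein ATG16L1, had 863, 588 and 425 counts in empty and 569, 474 and 437 in LINC00862, with overlapping groups. RAB33A therefore went from 31.1 ± 9.42% to 78.6 ± 2.25% of the FPKM of the RAB33 pair.

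RAB43, which acts at the Golgi, had 1595, 1107 and 1093 counts in empty and 202, 514 and 13 in LINC00862. Its LINC00862 libraries were all lower but scattered, and its log2 fold change of -2.30 had an SE of 0.84 (Benjamini-Hochberg adjusted p = 0.0367 in edgeR's quasi-likelihood test). ISY1-RAB43, a read-through gene on the same strand, had 0 counts in each empty library and 456, 0 and 562 counts in LINC00862. The sum of both was 658, 514 and 575 counts in LINC00862, far more even than RAB43 alone. Summed, an alternative chosen after the values were seen, the log2 fold change was -1.01 (SE 0.18, adjusted p = 0.00112 by the same edgeR test). With a library left out, the log2 fold change of RAB43 alone ran from -3.56 to -1.75. Without empty libraries 1, 2 or 3 or LINC00862 library 1, RAB43 alone was not called, with Benjamini-Hochberg adjusted p = 0.0759, 0.0698, 0.0533 and 0.107 in edgeR's quasi-likelihood test. It was also not called under upper quartile scaling or without the count filter (adjusted p = 0.0501 and 0.0517 by the same edgeR test), or by DESeq2's Wald test (Benjamini-Hochberg adjusted p = 0.0706). RAB30, another Golgi RAB, fell by a log2 fold change of -0.94 (SE 0.25), from 1.83 ± 0.675 to 0.837 ± 0.205 FPKM. RAB2A, which acts between the endoplasmic reticulum and the Golgi, rose by a log2 fold change of 0.59 (SE 0.12). RAB18, RAB2B, RAB41 and RAB6D were not called, and RAB41 had 21, 25 and 20 counts in empty and 10, 0 and 0 in LINC00862, a difference at few counts (Benjamini-Hochberg adjusted p = 0.0597 in edgeR's quasi-likelihood test). RAB41 was called lower without LINC00862 library 1 (adjusted p = 0.00334 by the same edgeR test) and in limma on log2(FPKM + 1) and log2(FPKM + 0.1) (Benjamini-Hochberg adjusted p = 0.00137 and 0.00168 in limma-trend's empirical Bayes test).

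Among 6 early endosomal RABs, 1 was higher and 3 lower, or 66.7% called, beside 64.2% of all genes. Of the 3 lower, RAB5C was not called under upper quartile scaling (Benjamini-Hochberg adjusted p = 0.0609 in edgeR's quasi-likelihood test). The 6 RABs summed to 113.3, 89.1 and 93.9 FPKM in empty and 68.5, 69.0 and 54.4 FPKM in LINC00862, without overlap. RAB5C, a RAB5 form that acts in fusion of early endosomes, had 9099, 7368 and 8722 counts in empty and 6362, 5700 and 3531 in LINC00862. The groups were separate, but the log2 fold change of -0.61 (SE 0.18) was small. RAB5B fell alike, with a log2 fold change of -0.62 (SE 0.15), whereas RAB5A, at 11.1 ± 2.29 and 11.1 ± 1.03 FPKM, overlapped and was not called. RAB31, which carries cargo between the trans-Golgi network and endosomes, had 5302, 3500 and 3520 counts in empty and 2134, 1967 and 1248 in LINC00862. All LINC00862 libraries were lower, with a log2 fold change of -1.11 (SE 0.19). RAB22A, its paralog, was not called, and its share of the pair's FPKM went from 40.1 ± 4.27% to 57.3 ± 6.22%. RAB21, which acts in integrin uptake, was the member that rose, by a log2 fold change of 0.61 (SE 0.13).

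Of 7 recycling-endosome RABs, 1 rose and 3 fell, or 57.1% called, beside 64.2% of all genes. RAB14 and RAB11A were not called under upper quartile scaling (Benjamini-Hochberg adjusted p = 0.0546 and 0.446 in edgeR's quasi-likelihood test). RAB15, which slows recycling from early endosomes and is mainly known from neurons, had 2223, 1586 and 1843 counts in empty and 107, 65 and 39 in LINC00862. It was low in every LINC00862 library, at 0.198 ± 0.0819 FPKM against 5.77 ± 0.953 FPKM. The log2 fold change was -4.67 (SE 0.3, Benjamini-Hochberg adjusted p = 1.86e-06 in edgeR's quasi-likelihood test). RAB4A, which drives fast recycling, had 1296, 1203 and 1356 counts in empty and 2851, 2159 and 2508 in LINC00862. The groups were separate and the log2 fold change was 1.06 (SE 0.15), while RAB4B was not called. AL162595, a non-coding gene on the opposite strand at RAB4A, rose too, from 101, 76 and 59 to 1599, 1390 and 1357 counts, and its part in the RAB4A counts was not tested.

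RAB14, which lies opposite to GSN on the other strand, had 7160, 5093 and 5781 counts in empty and 4472, 4039 and 2844 in LINC00862. It was lower in each LINC00862 library, with a log2 fold change of -0.58 (SE 0.16). GSN itself dropped from 4045, 4530 and 5164 counts to 343, 297 and 252, and its part in the RAB14 counts was not tested. RAB11A, the main RAB of slow recycling, had a log2 fold change of -0.34 (SE 0.13, Benjamini-Hochberg adjusted p = 0.0479 in edgeR's quasi-likelihood test), the weakest of the calls. It was not called without empty library 2 or 3 or LINC00862 library 1, 2 or 3 (adjusted p = 0.137, 0.0809, 0.127, 0.188 and 0.0648 by the same edgeR test), nor without the count filter (adjusted p = 0.0673 by the same edgeR test). A replicate block ended the call too (adjusted p = 0.15 by the same edgeR test). RAB11A held 53.9 ± 4.89% of the RAB11A and RAB11B FPKM in empty and 54.0 ± 3.24% in LINC00862. RAB35 and RAB11B were not called.

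All 5 tested RABs of late endosomes, lysosomes and autophagy were called, 2 higher and 3 lower. Beside these few genes, 64.2% of all genes and 69.1% of protein-coding genes were called. RAB7A, the main RAB of late endosomes and lysosomes, had 15266, 14871 and 14689 counts in empty and 9032, 7189 and 6627 in LINC00862. The empty libraries were nearly equal and all above the others, with a log2 fold change of -0.89 (SE 0.13, Benjamini-Hochberg adjusted p = 0.000315 in edgeR's quasi-likelihood test). RAB24, linked to autophagy, had 2728, 4071 and 4381 counts in empty and 1456, 1327 and 1276 in LINC00862. It was lower in each LINC00862 library, with a log2 fold change of -1.38 (SE 0.22), as was its same-strand neighbour MXD3, which overlaps it (2233, 2938 and 3714 against 1007, 856 and 806 counts). RAB9A, which returns mannose 6-phosphate receptors to the trans-Golgi network, had 927, 1064 and 1085 counts in empty and 2152, 1950 and 2055 in LINC00862. Its groups were separate, with a log2 fold change of 1.10 (SE 0.16). RAB9B moved the other way, from 183, 96 and 146 counts to 25, 16 and 4, so that RAB9A went from 92.8 ± 2.58% to 99.6 ± 0.27% of the FPKM of the pair. RAB39B rose as well but stayed at 0.215 ± 0.0603 FPKM.

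RAB40 proteins carry a SOCS box that couples them to ubiquitin ligases. RAB40C had 1315, 1426 and 1752 counts in empty and 2685, 2592 and 2559 in LINC00862. All LINC00862 libraries were higher, with a log2 fold change of 0.90 (SE 0.17). RAB40B went down by a log2 fold change of -0.54 (SE 0.18), from 1031, 1096 and 1147 to 728, 632 and 743 counts, with no overlap between the groups. Its call was lost under upper quartile scaling and without empty library 2 or 3 or LINC00862 library 1 or 2 (Benjamini-Hochberg adjusted p = 0.169, 0.082, 0.0686, 0.112 and 0.108 in edgeR's quasi-likelihood test). A replicate block ended the call too (adjusted p = 0.0587 by the same edgeR test). RAB40A stayed low, at 0.243 ± 0.0895 and 0.17 ± 0.0351 FPKM, and was not called. RAB40C went from 64.9 ± 1.91% to 83.3 ± 1.39% of the FPKM of this subfamily.

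Of the RABs without a place in these groups, RAB20, linked to phagosome maturation, had 1643, 1724 and 2110 counts in empty and 723, 721 and 518 in LINC00862. It was lower throughout, with a log2 fold change of -1.40 (SE 0.18). RAB42 had 267, 179 and 185 counts in empty and 21, 27 and 8 in LINC00862, a log2 fold change of -3.40 (SE 0.44). TAF12, on the opposite strand at RAB42, dropped less, from 920, 1265 and 1181 to 581, 555 and 552 counts. RAB36 was not called. RAB44 and RAB7B had too few counts to be tested, with 4, 4 and 8 against 2, 0 and 0 counts for RAB44 and 8, 31 and 53 against 4, 0 and 0 for RAB7B.

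**Figure D3:**
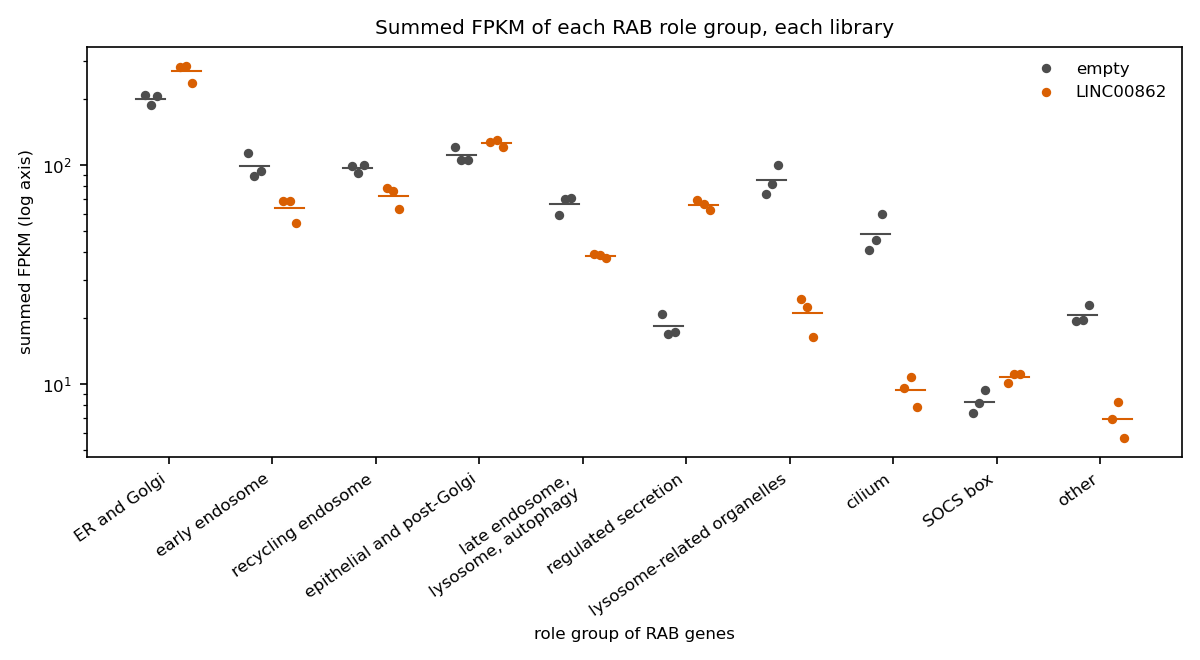
Summed FPKM (log axis) of the RAB genes of each role group in each of the 3 empty and 3 LINC00862 libraries, points for libraries and short lines for group means. The mean of regulated secretion went from 18.4 to 65.9 FPKM and that of the cilium group from 48.7 to 9.4 FPKM, while the ER and Golgi group stayed the largest.

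Seen over the 15 subfamilies with at least a pair of paralogs in the table, the share of the form that led in empty did not overlap between the groups in all but RAB5, RAB11 and RAB27. Beside this, FPKM did not overlap for 71.1% of all genes tested, and shares in other gene families were not computed. With 3 libraries against 3, an exact two-sided permutation test cannot give less than p = 0.1, which Benjamini-Hochberg adjustment over the 15 subfamilies turned into 0.125 for each separated share. No share could therefore pass a threshold of 0.05. By FPKM, the leading form itself was replaced in RAB3, RAB32, RAB33 and RAB22. In RAB22 the new leader, RAB22A, did not itself rise, at 7.44 FPKM in empty and 6.12 in LINC00862. RAB1B lost the FPKM lead in LINC00862 library 3 only (48.59% against 51.41% for RAB1A). By shares of counts, which do not allow for gene length, RAB33B still led in each LINC00862 library (54.0, 58.2 and 60.4%), RAB22A led already in empty (53.0% on average), RAB29 and not RAB38 led its subfamily in each LINC00862 library (52.6, 54.4 and 48.4%), and RAB1B went from 59.9 ± 4.03% to 44.4 ± 7.63%, losing the lead in LINC00862 libraries 1 and 3. Also by counts, RAB5B led RAB5C on average, with 43.54 against 42.5% in empty and 39.54 against 38.25% in LINC00862. For RAB27 the exact permutation p was 0.8, with RAB27A at 76.1 ± 4.63% and 75.1 ± 1.1% of FPKM, and the groups overlapped.

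The genes that run the RAB cycle were taken from lists set by function, and they too moved both ways. Of 7 genes of prenylation, escort and GDP dissociation inhibition, 2 were higher and 2 lower, or 57.1% called, beside 64.2% of all genes called in either direction. GDI2, which draws GDP-bound RABs off membranes, dropped by a log2 fold change of -0.51 (SE 0.13), as did RABIF, a chaperone of nucleotide-free RABs (-0.57, SE 0.17). CHML, an escort protein for prenylation, rose from 2272, 1493 and 1174 to 8958, 8558 and 8073 counts, a log2 fold change of 2.49 (SE 0.21). RABAC1, a prenylated RAB acceptor, rose by a log2 fold change of 1.01 (SE 0.28).

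Of 36 exchange factors, 9 were higher and 14 lower, or 63.9% called, beside 64.2% of all genes. The 3 largest rises with a level of at least 1 FPKM were DENND1C, DENND2D and ALS2CL. DENND2D, of a DENND group that acts on RAB9, went from 71, 83 and 89 to 3671, 2993 and 2602 counts, and DENND1C from 14, 26 and 32 to 1600, 1658 and 867. Both were close to silent in empty, with log2 fold changes of 5.33 (SE 0.2) and 5.90 (SE 0.39), and ALS2CL followed with 3.46 (SE 0.19). The largest falls were DENND2A at -5.19 (SE 0.24), RIN3, which acts on RAB5, at -4.02 (SE 0.24), and DENND5B at -1.78 (SE 0.29). DENND2A went from 1175, 882 and 961 to 30, 25 and 22 counts. DENND2A and DENND2D, relatives in the same DENND2 group, thus moved in opposite directions.

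GTPase-activating proteins numbered 36, with 15 higher and 10 lower, or 69.4% called, beside 64.2% of all genes and 69.1% of protein-coding genes. Among those with a level of at least 1 FPKM, TBC1D30 went from 71, 63 and 64 to 3350, 3015 and 3009 counts, without overlap and with a log2 fold change of 5.66 (SE 0.17). TBC1D8B had 11, 15 and 0 counts in empty and 1145, 1252 and 914 in LINC00862 (log2 fold change 7.07, SE 0.64), and GRTP1 rose by 2.89 (SE 0.29). TBC1D1, which acts on RAB10 and RAB8A in glucose transporter traffic, dropped from 4954, 3294 and 4260 to 379, 351 and 323 counts. Its log2 fold change was -3.47 (SE 0.17), followed by SGSM2 at -2.17 (SE 0.19) and TBC1D25 at -1.95 (SE 0.22).

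Of 46 effectors tested, 16 were higher and 21 lower, or 80.4% called, beside 64.2% of all genes and 69.1% of protein-coding genes. SYTL5, RIMS2 and MYRIP had larger log2 fold changes than those below but stayed under 1 FPKM. At 1 FPKM or more, the largest rises were in effectors of RAB27 and RAB3. MLPH, which links RAB27A to myosin Va on melanosomes, went from 722, 847 and 854 to 32393, 27948 and 31987 counts, and was the most abundant effector in LINC00862 at 59.4 FPKM. Its log2 fold change was 5.35 (SE 0.2), beside 5.36 (SE 0.23) for SYTL1, a synaptotagmin-like RAB27 effector, and 5.01 (SE 0.24) for RPH3AL, which binds RAB3A and RAB27 forms. SYTL2, another RAB27 effector, moved the other way, from 1740, 1321 and 1163 to 180, 150 and 114 counts (log2 fold change -3.16, SE 0.21). The other leading falls were MICAL1, which oxidizes actin downstream of RABs (-4.14, SE 0.27), and RILPL2, a partner of LRRK2-phosphorylated RABs (-3.85, SE 0.23). The RAB27 effectors named here were found on both sides, as were the RAB3 genes.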

How the data were processed

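RNA-seq of 3 LINC00862 and 3 empty-vector libraries of HCCLM3 was used. The deposited counts and the deposited FPKM come from 1 table made by the authors. The submitters' processing notes name cutadapt 1.9, HISAT2 2.0.4, UMI-tools, StringTie 1.3.4d, DESeq2, edgeR and hg38, without their roles or order. How strand was used in counting is not given in the sources used here. Counts and FPKM kept 1 ratio per gene within 5% in all 11071 genes whose lowest library had 100 counts or more, and in 4161 of 7332 genes (56.75%) whose lowest library had from 1 to under 100 counts. Of 14 RAB genes in that lower range, 11 did, and RAB42, RAB43 and RAB38 deviated by up to 13.02, 7.57 and 5.11%.

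Counts of all genes were filtered by filterByExpr, scaled by TMM and fitted with edgeR 4.0.16 (quasi-likelihood test, Benjamini-Hochberg over 20741 genes, false discovery rate 0.05) in R 4.3.3, after the script was tested on simulated data. Alternatives were upper quartile scaling, library size only, DESeq2 1.42.0, no filter (at least 1 count), limma 3.58.1 on log2(FPKM + 1) and log2(FPKM + 0.1), a replicate block, a test against a 2-fold change, a false discovery rate of 0.01 and leaving out each library. Added after seeing the data were RAB43 summed with ISY1-RAB43 and a fit without the most abundant genes. Total counts ran from 58241123 to 68229070 per library. The floor for a gene at 0 was 3 counts per library, which covers counting error only.

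Named RAB genes were the 12 largest rises and 12 largest falls with an adjusted p under 0.05, at least 1 FPKM in a group and no overlap, the 5 most abundant, and paralogs that moved in opposite directions. For machinery lists, the 3 largest rises and falls with at least 1 FPKM in a group were named. Of the planned lists, 2 genes are not reported here, and list totals leave them out. The members and lists were chosen with earlier results of these data known.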

Additional observations from a re-analysis of the deposited data

How the results depend on the processing

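Of 20 RAB genes called higher, 18 were called in all 13 alternative fits, and of 20 called lower, 15 were, with 0 reversed. Upper quartile scaling called 21 higher and 15 lower, library size alone 19 and 23, DESeq2 20 and 19, and no filter 20 and 19. Limma called 19 and 24 with either pseudocount, and a false discovery rate of 0.01 left 18 and 15. Of all genes tested, 38.9% were higher and 25.5% lower with upper quartile scaling, and 31.0 and 32.9% with library size alone. DESeq2 gave 36.4 and 29.7%, no filter 20.6 and 16.9%, and limma on log2(FPKM + 1) 32.2 and 33.4%. A false discovery rate of 0.01 left 28.2 and 24.2% of all genes. Leaving out a library gave 19 to 20 higher and 17 to 21 lower, 12063 to 14285 genes called in all, 39 to 44 machinery genes higher and 42 to 51 lower, and a RAB median log2 fold change from -0.147 to -0.01.

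A test against a 2-fold change, stricter by construction, called 9 RAB genes higher and 9 lower, and 29 machinery genes higher and 23 lower. It called 8010 genes in all, with 23.2% of all genes tested higher and 15.4% lower. Machinery genes were 42 higher and 47 lower in the main fit. They were 46 and 39 with upper quartile scaling and 39 and 55 with library size only, so their balance turned with the scaling. The balance of all genes turned too, from 38.9% higher and 25.5% lower with upper quartile scaling to 31.0 and 32.9% with library size only. The RAB median was 0.115 with upper quartile scaling, -0.256 with library size only, -0.182 with no filter and -0.245 with limma on log2(FPKM + 0.1). The cause was not tested. RAB2B, RAB11B, RAB12, RAB28 and RAB41 were called in at least 1 alternative. Leaving out the most abundant genes gave 20 higher and 20 lower.

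Over the 30 named RAB genes, 407 values under 15 alternatives kept direction and call, 14 kept direction only (RAB43, RAB40B and RAB5C), and 0 reversed. These leave out the test against a 2-fold change, which also lost the calls of RAB27A, RAB27B, RAB10, RAB1A, RAB9A, RAB4A, RAB23, RAB8A, RAB31 and RAB40C, and the false discovery rate of 0.01, which lost those of RAB43, RAB40B and RAB5C. With shares of counts in place of FPKM, RAB3B still lost share (by -75.47 points) and so did RAB32 (by -62.14 points). RAB33B lost less (-33.86 against -47.41 points) and stayed the leading form, RAB22A led in both groups on average, and RAB1B lost the lead on average.

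Replicate numbers did not pair the libraries. Deviations of same-numbered libraries correlated across 13831 genes at -0.128, -0.205 and -0.103, and no library correlated best with its own number. Of the pairs with other numbers, empty 1 with LINC00862 2 (0.173), empty 2 with LINC00862 3 (0.238) and empty 3 with LINC00862 1 (0.21) were positive, and the others ran from -0.091 to -0.052. The cause was not tested. With the replicate block, 12098 genes were called, 20 RAB genes higher and 18 lower, the lost calls being RAB11A and RAB40B.

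Limits are that each group had 3 libraries of a single cell line and that low RAB genes such as RAB41, RAB37 and RAB39B rest on few counts. Overlapping and read-through genes limit RAB43, RAB14, RAB24, RAB8A, RAB17, RAB4A, RAB3D and RAB27A, among others.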
